A study of Mus musculus with 7 samples.

Results

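Nucleoside diphosphate kinases are the enzymes that make nucleoside triphosphates from diphosphates, and 6 of their genes, Nme1, Nme2, Nme3, Nme4, Nme6 and Nme7, were followed here in mouse haematopoietic stem cells exposed to drugs that disturb DNA replication. The genes were taken by symbol from a deposited table of 52224 genes, and all 6 passed the filter that left 13865 genes for testing (FPKM, the fragments per kilobase of transcript and library size, had to reach 1 or more in 2 or more libraries). The set was chosen by gene family, with the FPKM of all 7 libraries in view, so their levels and fold changes are given as a description and carry no test. The cells came from the bone marrow of wild-type C57BL/6J mice and had been sorted as Lineage-negative, Sca-1+, c-Kit+ cells that carried CD150 and lacked CD48. For 48 h they were kept with gemcitabine at 0.5 µM (Gem, 2 libraries), with hydroxyurea at 100 µM (HU, 2 libraries) or with the solvent DMSO alone (3 libraries). Whether separate mice or cultures lie behind the libraries is not in the labels, so any p-value measures the spread between libraries, which may be technical.

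Each of these enzymes, where active, moves the terminal phosphate of ATP onto a nucleoside diphosphate through a phosphohistidine in its own active site, and so feeds the pools of both ribonucleotides and deoxyribonucleotides. The step follows ribonucleotide reductase, the enzyme that hydroxyurea blocks, and it also turns gemcitabine diphosphate into the triphosphate that is built into DNA. In human cells NME1 and NME2 are found in cytosol and nucleus as mixed hexamers, NME3 sits on the mitochondrial outer membrane, NME4 lies between the mitochondrial membranes, NME6 is mitochondrial and weakly active, and NME7 belongs to the gamma-tubulin ring complex that starts microtubules.

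Nme1 and Nme2 are neighbours, and their promoters are shown because they had the highest levels of the 6 and share a locus. In GENCODE M21 (GRCm38), Nme1 runs from 93956979 to 93968521 and Nme2 from 93949814 to 93956259, both on the minus strand of chromosome 11, with 719 bases between them. RefSeq (GRCm38.p6) lists 2 start sites for each, and the windows hold 250 bases before and 50 bases after a start. The windows below, 5′ to 3′ on the minus strand, are at chr11:93967976-93968275 and chr11:93968223-93968522 for Nme1 and at chr11:93955734-93956033 for Nme2. Capitals mark CACGTG, the E-box bound by MYC and other factors, in Nme1, and GGGCGG or its reverse complement CCGCCC, the GC-box, in Nme2.
Nme1 inner start: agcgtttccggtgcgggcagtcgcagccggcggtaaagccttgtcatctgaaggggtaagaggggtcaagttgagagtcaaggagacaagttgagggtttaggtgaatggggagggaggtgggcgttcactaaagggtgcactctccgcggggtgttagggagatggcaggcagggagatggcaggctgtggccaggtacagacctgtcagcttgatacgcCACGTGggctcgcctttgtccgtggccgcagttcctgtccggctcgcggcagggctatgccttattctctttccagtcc
Nme1 outer start: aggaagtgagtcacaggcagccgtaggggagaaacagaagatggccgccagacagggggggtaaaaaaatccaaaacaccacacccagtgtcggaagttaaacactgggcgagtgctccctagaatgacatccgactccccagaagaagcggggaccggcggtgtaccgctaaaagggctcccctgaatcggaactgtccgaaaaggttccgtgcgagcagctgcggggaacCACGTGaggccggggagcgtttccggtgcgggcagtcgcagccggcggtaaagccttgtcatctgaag
Nme2 start: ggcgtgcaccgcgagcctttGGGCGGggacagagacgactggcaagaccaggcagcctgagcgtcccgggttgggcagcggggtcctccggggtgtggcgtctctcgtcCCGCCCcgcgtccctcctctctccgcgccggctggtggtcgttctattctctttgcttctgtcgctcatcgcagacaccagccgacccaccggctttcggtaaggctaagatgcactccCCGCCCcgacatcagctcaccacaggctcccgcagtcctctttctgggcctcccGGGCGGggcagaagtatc
Each Nme1 window held its own E-box, at separate sites: 1 lay 29 bases before the inner start and 1 lay 18 bases before the outer start. The Nme2 window held 4 GC-boxes and no E-box, and its other window, at chr11:93956207-93956506, held neither motif. Of 32851 mouse promoter windows of the same length, searched on both strands, 7.15% held CACGTG and 35.7% held the GC-box. Nme1 was the single gene of the 6 with CACGTG in its windows, while Nme3, Nme4 and Nme7 held 2, 1 and 1 GC-boxes and Nme6 held none. CCAAT or its reverse complement ATTGG, present in 37.4% of all windows, was found in Nme6 (1 match) and Nme7 (3 matches). A match is a run of letters, and binding was not measured.

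The libraries differed as wholes. The summed FPKM was 703016 to 729258 in Gem, 647760 to 651315 in HU and 818775 to 832979 in DMSO, and sequencing depth is unknown because the table holds no counts. Genes above 0 numbered 27887 to 29158 in Gem, 29687 to 31153 in HU and 21251 to 23047 in DMSO, and the same order held for 1766 olfactory, vomeronasal and related receptor genes, of which 955 to 1031, 1182 to 1204 and 373 to 400 were above 0. The median log2 fold change of all tested genes was -0.25 in Gem and -0.30 in HU against DMSO on the deposited values, and -0.03 and -0.06 after each library was scaled by trimmed means. The lower sums move with every lower level below, and their part in it was not tested, so scaled values stand beside the deposited ones. Of the sorted markers, Slamf1 (CD150) averaged 0.830 FPKM in Gem, 0.795 in HU and 0.930 in DMSO. In the same order, Kit averaged 32.3, 32.6 and 43.9 FPKM and Ly6a (Sca-1) 23.7, 16.5 and 39.2 FPKM. Cd48, the protein absent at sorting, averaged 127, 107 and 213 FPKM. The granulocyte and monocyte gene Mpo averaged 3358, 3740 and 3234 FPKM in Gem, HU and DMSO, so the RNA of these cultures was rich in myeloid transcripts in all groups. The summed level of 12 granulocyte and monocyte markers was 50202 to 52389 FPKM in Gem, 46762 to 50282 in HU and 42525 to 47748 in DMSO. Most of that sum was Lyz2, which averaged 34951 FPKM in Gem, 34446 in HU and 25887 in DMSO. The median log2 difference of the 12 markers was -0.32 in Gem and -0.53 in HU. Limma called 3 and 4 of them lower and 0 higher, where 23.2% and 35.5% of all tested genes were called lower. The summed level of 10 stem cell markers was 97.2 to 107 in Gem, 90.4 to 94.95 in HU and 143 to 154 in DMSO. That of 8 erythroid markers was 54.0 to 63.0, 62.1 to 62.9 and 102 to 136, and that of 6 mast cell and basophil markers 220 to 402, 199 to 204 and 281 to 1356. In the same order, 6 megakaryocyte markers summed to 1705 to 1801, 1359 to 1556 and 1738 to 2815, 7 lymphoid markers to 35.7 to 51.2, 43.2 to 44.6 and 55.2 to 88.6, and 6 stromal and endothelial markers to 24.7 to 34.8, 22.5 to 28.4 and 33.2 to 38.1. Their part in the levels of the members was not tested. No marker on these lists was at 0 in all 7 libraries. Fewer cells of a type and less RNA per cell cannot be told apart in such bulk samples.

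Nme1, which with Nme2 makes up most of the cytosolic activity, was the member farthest below DMSO in HU. It measured 84.11 and 68.09 FPKM in Gem, 44.03 and 45.2 FPKM in HU, and 153.88, 155.62 and 131.15 FPKM in DMSO. The 3 groups did not overlap, HU libraries were lowest and Gem libraries lay between HU and DMSO. Over all tested genes, both Gem libraries lay below all DMSO libraries in 50.4%, both HU libraries in 53.9%, and both HU libraries below both Gem libraries in 27.7%. The Gem mean of 76.1 ± 11.3 FPKM (SD, n = 2) was 51.8% and the HU mean of 44.6 ± 0.827 (SD, n = 2) was 30.4% of the DMSO mean of 147 ± 13.7 (SD, n = 3). On the log2(FPKM + 1) scale the difference from DMSO was -0.94 ± 0.11 (SE of the limma fit) in Gem and -1.69 ± 0.11 in HU, and after scaling -0.70 ± 0.10 and -1.41 ± 0.10. Of the 13865 tested genes, 207 had a lower fold change than Nme1 in Gem and 58 in HU.

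Nme2, the partner subunit and in human cells also a protein histidine kinase, was the most abundant member and followed the same order. It measured 204.96 and 229.19 FPKM in Gem, 168.8 and 155.62 FPKM in HU, and 310.73, 310.38 and 320.67 FPKM in DMSO. Again no library of one group reached into another. The means were 217 ± 17.1 FPKM in Gem, 162 ± 9.32 in HU and 314 ± 5.84 in DMSO, which put Gem at 69.1% and HU at 51.7% of DMSO. The log2 difference from DMSO was -0.53 ± 0.08 in Gem and -0.95 ± 0.08 in HU, and after scaling -0.28 ± 0.09 and -0.67 ± 0.09.

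**Figure D1:**
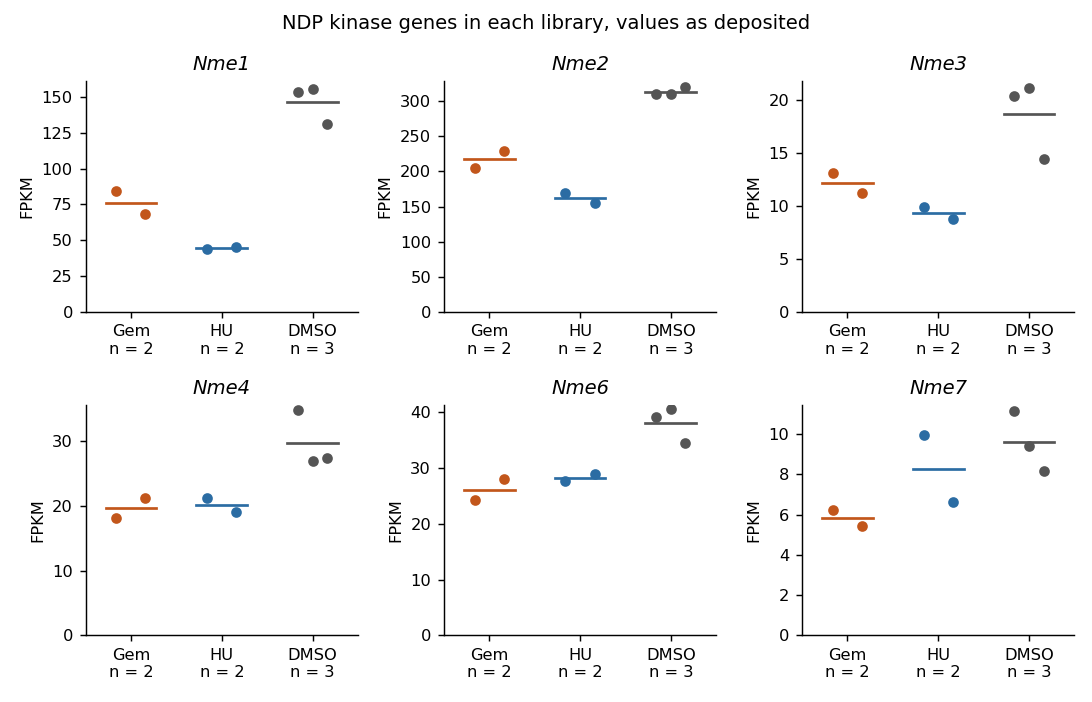
Deposited FPKM (y axes, linear, each from 0) of the 6 nucleoside diphosphate kinase genes by treatment (x axes: Gem, HU, DMSO). Points are libraries (2, 2 and 3) and lines are group means; both drug groups sat below DMSO for every gene except Nme7, whose HU libraries overlapped DMSO.

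Nme1 stood lower in relation to Nme2 in the drug groups, with 1 overlap. The ratio of their FPKM was 0.410 and 0.297 in Gem, 0.261 and 0.290 in HU, and 0.495, 0.501 and 0.409 in DMSO. Both HU libraries were under all DMSO libraries, while Gem library 1 overlapped DMSO library 3. Scaling each library by 1 factor leaves this ratio as it is. The sum over the 6 members was 351 and 363 FPKM in Gem, 281 and 264 in HU, and 570, 564 and 536 in DMSO, so that Gem held 64.1% and HU 49.0% of the DMSO mean. Nme1 made up 21.4% ± 3.69 of that sum in Gem, 16.4% ± 1.04 in HU and 26.3% ± 1.66 in DMSO, and Nme2 60.8% ± 3.33, 59.5% ± 0.750 and 56.4% ± 2.91 (SD, n = 2, 2 and 3). The other 4 members together made up 17.9% in Gem, 24.2% in HU and 17.2% in DMSO.

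Another gene annotated at this locus is Gm20390, a joint transcript that reads through Nme1 into Nme2 (chromosome 11, 93949819 to 93968293, minus strand). Of its 991 exonic bases in 8 exons, 418 lie in exons of Nme1, 573 in exons of Nme2 and 0 outside both, so the table's split of reads among the 3 genes is uncertain. In windows of 50 bases, 11.1% of Nme1 and 47.0% of Nme2 were shared with other genes, and 44 of the 942 windows of Gm20390 were its own. Gm20390 measured 32.31 and 24.21 FPKM in Gem, 35.52 and 24.47 in HU, and 30.35, 31.93 and 7.19 in DMSO. The groups overlapped, and DMSO library 3 stood far below the other libraries. By limma with Benjamini-Hochberg adjustment it did not pass in Gem (log2 difference 0.51 ± 0.57, adjusted p = 0.539) or in HU (0.58 ± 0.57, adjusted p = 0.443).

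Set against Nme1, the joint gene was higher with drug. Its ratio to Nme1 was 0.384 and 0.356 in Gem, 0.807 and 0.541 in HU, and 0.197, 0.205 and 0.0548 in DMSO, with no overlap among the groups. The sum of the 3 genes depends less on which of them a shared read was given to, although FPKM divides by each gene's own length and so the sum is not free of that split. It was 321.4 and 321.5 FPKM in Gem, 248 and 225 in HU, and 495, 498 and 459 in DMSO. The groups stayed apart in the sum, with Gem at 66.4% and HU at 48.9% of DMSO. The sum of Nme1 and Gm20390 averaged 104 ± 17.1 FPKM in Gem, 74.6 ± 6.99 in HU and 170.0 ± 27.5 in DMSO (SD, n = 2, 2 and 3), or 61.4% and 43.9% of DMSO. The pseudogenes Gm5425, Gm5566 and Gm7730, which share stretches with Nme2, reached at most 2.07 FPKM.

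**Figure D2:**
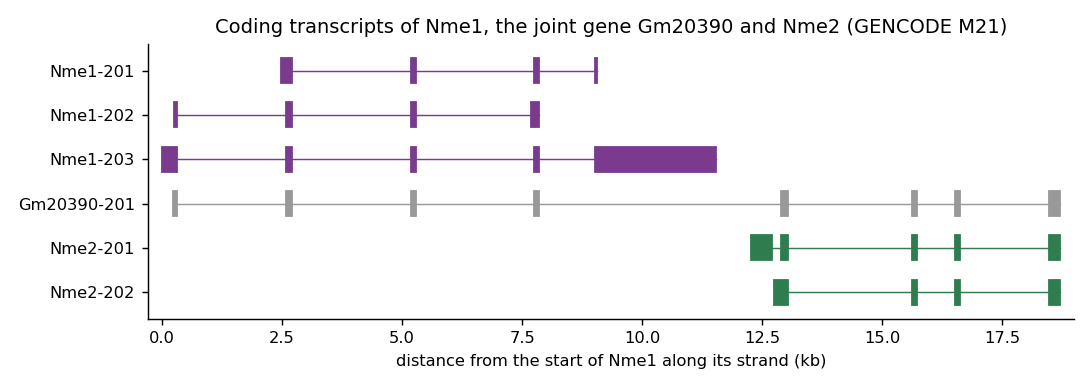
Exons of the annotated coding transcripts of Nme1 (3), Gm20390 (1) and Nme2 (2), drawn to scale by distance in kb from the Nme1 start in the direction of transcription (x axis). Every exonic base of Gm20390 lies in an exon of Nme1 or of Nme2.

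**Figure D3:**
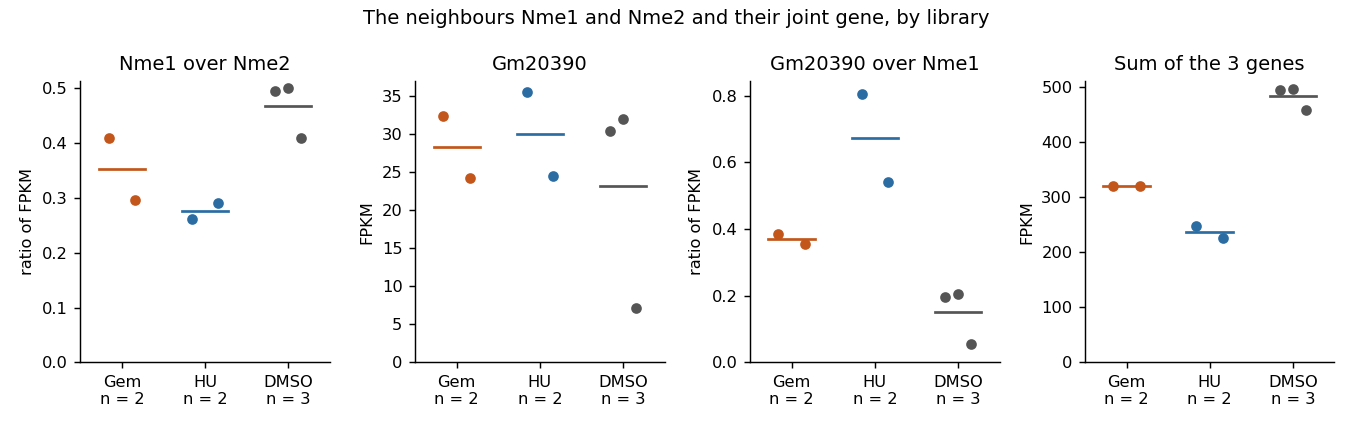
Values at the Nme1 and Nme2 locus by treatment (x axes: Gem, HU, DMSO): the Nme1 to Nme2 ratio, the FPKM of Gm20390, the ratio of Gm20390 to Nme1 and the summed FPKM of the 3 genes (y axes, linear). Points are libraries and lines group means; the sum and the Gm20390 to Nme1 ratio separate all 3 groups, the Nme1 to Nme2 ratio has 1 Gem library among DMSO, and Gm20390 itself overlaps.

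Nme3, whose human protein acts at mitochondrial contact and fusion sites, was, like Nme1 and Nme2, lowest in HU. It measured 13.06 and 11.25 FPKM in Gem, 9.86 and 8.79 in HU, and 20.36, 21.17 and 14.39 in DMSO. The groups did not overlap as deposited, although DMSO library 3 was well below the other 2, and after scaling the Gem libraries (12.3 to 13.7) overlapped DMSO (13.2 to 18.9). Gem averaged 65.2% and HU 50.03% of DMSO, with log2 differences of -0.56 ± 0.17 and -0.91 ± 0.17, and of -0.33 ± 0.16 and -0.65 ± 0.16 after scaling. In the annotation the gene spans 1023 bases of the plus strand of chromosome 17 (24896500 to 24897522), and 73.2% of its windows are shared with a joint transcript assigned to Mrps34, a mitochondrial ribosomal protein gene on the same strand. Mrps34 measured 38.09 and 36.36 FPKM in Gem, 34.24 and 36.9 in HU, and 55.75, 54.27 and 46.02 in DMSO, so the 2 genes were low in the same libraries and their reads cannot be fully told apart.

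Nme4, which in human cells passes triphosphates to the mitochondrial fusion protein OPA1 and binds cardiolipin, was about equally low with both drugs. It measured 18.17 and 21.13 FPKM in Gem, 21.15 and 19 in HU, and 34.75, 26.96 and 27.35 in DMSO. Gem and HU libraries were interleaved and all lay below DMSO. The Gem mean of 19.7 ± 2.09 FPKM (SD, n = 2) was 66.2% and the HU mean of 20.1 ± 1.52 (SD, n = 2) was 67.6% of the DMSO mean of 29.7 ± 4.39 (SD, n = 3). The log2 differences were -0.57 ± 0.13 in Gem and -0.53 ± 0.13 in HU, and -0.33 and -0.26 after scaling. Nme4 (chromosome 17, 26091734 to 26095602, minus strand) shared no window of 50 bases with another gene.

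Nme6, the mitochondrial member that pairs with RCC1L in human cells, was likewise below DMSO in both drug groups. It measured 24.34 and 27.97 FPKM in Gem, 27.62 and 28.88 in HU, and 39.13, 40.55 and 34.55 in DMSO. The drug libraries overlapped each other and none reached the DMSO range, as deposited or scaled. Gem averaged 68.7% and HU 74.2% of DMSO, with log2 differences of -0.53 ± 0.10 and -0.42 ± 0.10, and of -0.28 and -0.14 after scaling. Nme6 lies on the plus strand of chromosome 9 (109832749 to 109843116) and shared 2 windows of 50 bases with other genes.

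Nme7, the gamma-tubulin ring member and the least abundant of the 6, had the opposite order of the drugs from Nme1. It measured 6.22 and 5.41 FPKM in Gem, 9.94 and 6.61 in HU, and 11.16, 9.4 and 8.18 in DMSO. The Gem libraries lay below both other groups, and the HU libraries overlapped DMSO. Gem averaged 60.7% and HU 86.4% of DMSO, with log2 differences of -0.63 ± 0.19 and -0.20 ± 0.19. After scaling the Gem difference was -0.41 ± 0.19 and the HU difference 0.05 ± 0.19, so in HU no side can be given. Nme7 spans 133605 bases of the plus strand of chromosome 1 (164304121 to 164437725).

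Against the whole table, 5 of the 6 members were among the genes called lower in Gem (limma, Benjamini-Hochberg adjusted p below 0.05), a call made for 23.2% of all tested genes, and 5 of the 6 in HU, where it was made for 35.5%. After scaling, Nme1 alone was called in Gem, beside 1.12% of all genes, and Nme1, Nme2 and Nme3 in HU, beside 9.04%. Without Gem library 2 the Gem count was 0 as deposited, with 13 genes called in all, and without HU library 1 the HU count was 3. Since the members were chosen with these contrasts known, nothing is read from those counts. No member was called higher in Gem or HU, where 1.5% and 4.46% of all genes were. The median log2 difference of the members was -0.56 in Gem and -0.72 in HU, and -0.33 and -0.46 after scaling. In 5 members every drug library was below every DMSO library, an arrangement found for 42.6% of all tested genes as deposited. The exception was Nme7. Short transcripts were somewhat lower than long ones in both drug groups. The 3510 tested genes with a longest transcript of at most 1500 bases had a median of -0.31 in Gem and -0.40 in HU. The 9930 longer ones had medians of -0.24 and -0.29. By longest coding transcript, Nme1 (3181 bases) and Nme7 (1740 bases) were among the longer ones and the other members among the short ones. The part of length in the members' values was not tested.

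**Figure D4:**
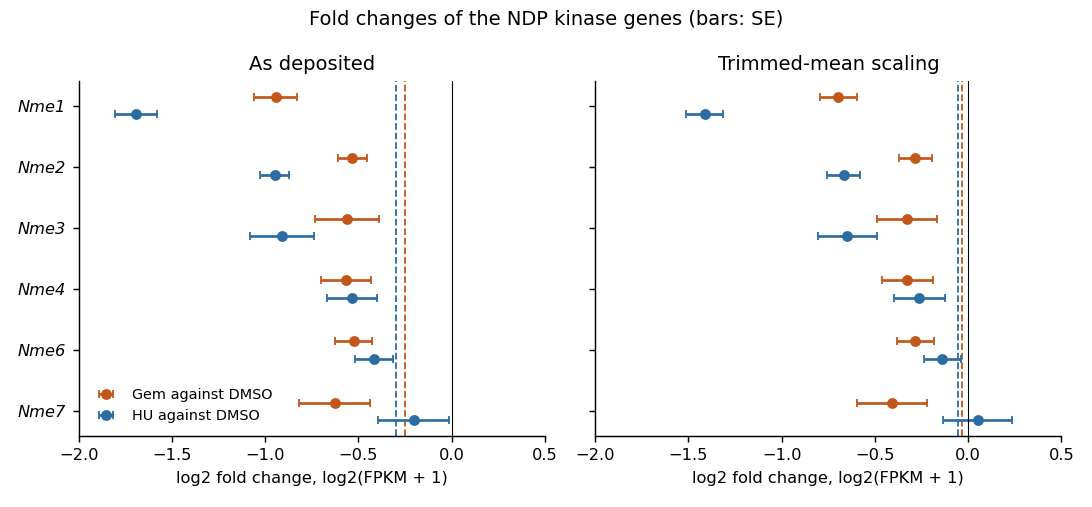
Log2 difference of log2(FPKM + 1) from DMSO (x axis) for each member (y axis) in Gem and in HU, as deposited and after trimmed-mean scaling; bars are the SE of the limma fit and dashed lines the median of all 13865 tested genes. Nme1 lies farthest to the left in both drugs, and the scaled HU value of Nme7 lies at 0.05.

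Between the drugs, Gem against HU gave a positive difference for Nme1 (0.75 ± 0.125), Nme2 (0.42 ± 0.08) and Nme3 (0.35 ± 0.19) and a negative one for Nme6 (-0.11 ± 0.11) and Nme7 (-0.42 ± 0.21), with Nme4 at -0.03 ± 0.15. For Nme1, Nme2 and Nme3 both Gem libraries were above both HU libraries, an order found for 27.7% of all tested genes. For Nme7 both Gem libraries were below both HU libraries, an order whose share of all genes was not counted. For Nme4 and Nme6 they overlapped. These differences are a description; over all tested genes, limma with Benjamini-Hochberg adjustment called 14, or 0.101%, between the drugs.

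The order of levels was the same in every group: Nme2, Nme1, Nme6, Nme4, Nme3 and Nme7 from high to low. FPKM is divided by transcript length, although the annotation behind it is not given. For Nme1, Nme2 and Nme3, reads shared with other genes make the levels, and so their places in this order, less certain. Neighbours in that order overlapped in their libraries in 2 places, Nme6 with Nme4 in DMSO and Nme3 with Nme7 in HU. In DMSO, Nme2 ranked 349 and Nme1 758 among the tested genes, Nme6 2835, Nme4 3494, Nme3 4848 and Nme7 6892. The 3 mitochondrial members, Nme3, Nme4 and Nme6, summed to 58.0 ± 3.38 FPKM in Gem, 57.6 ± 1.39 in HU and 86.4 ± 9.19 in DMSO (SD, n = 2, 2 and 3). Gem and HU differed in that sum by less than the spread between their libraries, although within it Nme3 was higher in both Gem libraries than in both HU libraries, while Nme4 and Nme6 had the higher mean in HU.

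Of the rest of the family, Nme5, Nme8 and Nme9 were nearly silent, and Rp2 was not. Nme5 and Nme8, whose products serve cilia and sperm tails, were listed at 0 in every library but HU library 2 (0.17 and 0.22 FPKM), and Nme9 was listed at 0 except for 0.11 in Gem library 1 and 0.33 in DMSO library 1. Rp2, a cilium-linked protein with a kinase-like domain, measured 18.93 and 17.78 FPKM in Gem, 14.75 and 17.81 in HU, and 21.9, 19.98 and 23.33 in DMSO. Rp2 fell in HU (log2 difference -0.40 ± 0.11, limma Benjamini-Hochberg adjusted p = 0.0268; 0.505 after scaling) and missed the threshold in Gem (-0.23 ± 0.11, adjusted p = 0.170). The HU call was lost without DMSO library 1, DMSO library 3 or HU library 1 (limma adjusted p from 0.0599 to 0.163).

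Among 8000 genes with a mean of at least 5 FPKM, the closest to each member in profile over the 7 libraries, by Pearson r on scaled log2 values, were these. For Nme1 they were Rps13 (r = 0.997), a small-subunit ribosomal protein, Polr3c (0.995), an RNA polymerase III subunit, and Prdx3 (0.995), a mitochondrial peroxiredoxin. For Nme2 they were Fbxo6 (0.995), Tmco1 (0.994) and Spcs1 (0.990), the last a signal peptidase subunit. For Nme3 they included the ribosomal protein genes Rplp1 (0.995) and Rpl30 (0.990). The values of Rps13 show the likeness: 497 and 433 FPKM in Gem, 341 and 348 in HU, and 751, 758 and 643 in DMSO, with the same order of groups as Nme1. Nme4 was closest to Ankle1 (0.992), Septin9 (0.982) and Gins4 (0.971), and Nme6 to Dguok (0.988), the mitochondrial deoxyguanosine kinase, Glul (0.978) and Cd3eap (0.970). Nme7 was closest to Ltbr (0.961), Ccdc88b (0.947) and Bcl7b (0.944). Each r rests on 7 points in 3 groups that differ as wholes, and the best of 8000 genes is high by selection.

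The enzymes upstream, which turn nucleosides into monophosphates or monophosphates into the diphosphates that the 6 members use, were low in the same libraries. Of 17 tested kinases of this list (21 in the table), 7 fell in Gem and 13 in HU by limma with Benjamini-Hochberg adjustment, none rose, and the medians were -0.47 and -0.45. Beside them, 23.2% and 35.5% of all genes were called lower. After scaling 3 were called in each drug, among them Guk1 and Dtymk in both, beside 1.12% and 9.04% of all genes. Guk1, which makes GDP and dGDP, had 28.9 and 27.2 FPKM in Gem, 27.2 and 32.8 in HU, and 55.6, 48.3 and 50.6 in DMSO. The drug libraries of Guk1 overlapped each other. None of them reached DMSO, as was so for 42.6% of all tested genes (limma adjusted p = 0.00581 in Gem and 0.00209 in HU, and 0.0368 and 0.0189 scaled). Dtymk, which makes thymidine diphosphate, averaged 99.0 ± 8.78 FPKM in Gem, 94.9 ± 4.82 in HU and 158 ± 3.36 in DMSO, with scaled limma adjusted p-values of 0.0403 and 0.0102. Dguok fell as deposited (-0.58 in Gem, limma adjusted p = 0.0128; -0.43 in HU, adjusted p = 0.0190) and missed the threshold scaled (0.154 and 0.399); the Gem call was lost without Gem library 1 (0.0692) and the HU call without DMSO library 1 or either HU library (0.0503 to 0.109). Ak6 fell in HU (-0.58, limma adjusted p = 0.00552) and in Gem had a difference of -0.35 with an adjusted p of 0.0501.

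Among 20 genes of ribonucleotide synthesis, 11 fell in Gem and 17 in HU, with medians of -0.38 and -0.43, and none rose. Of all tested genes, 23.2% and 35.5% were called lower. After scaling 0 of the 20 were called in Gem, where 13 had passed an unadjusted p of 0.05 as deposited. In HU 4 were called after scaling, namely Adss, Adsl, Pfas and Aprt. The scaled shares of all tested genes called lower were 1.12% in Gem and 9.04% in HU. Pfas, which adds an amide nitrogen early in purine synthesis, averaged 15.6 ± 2.15 FPKM in Gem, 13.7 ± 0.983 in HU and 25.8 ± 1.48 in DMSO. Its log2 difference was -0.69 in Gem (limma Benjamini-Hochberg adjusted p = 0.00877, 0.0859 scaled) and -0.87 in HU (0.00178, 0.0154 scaled). Aprt, which salvages adenine, averaged 164 ± 9.91, 143 ± 1.39 and 261 ± 31.2 FPKM in Gem, HU and DMSO, with differences of -0.66 (limma adjusted p = 0.00877) and -0.85 (adjusted p = 0.00162). The muscle-type adenylosuccinate synthase Adssl1 was called lower in both drugs as deposited, but its HU difference of -0.26 turned to 0.02 after scaling and lost its call without HU library 1 (limma adjusted p = 0.0804).

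Of 16 tested genes of deoxynucleotide supply and pool cleaning (17 in the table), 10 fell in Gem and 12 in HU, with medians of -0.48 and -0.53, and none rose. After scaling the counts were 0 in Gem, against 12 at an unadjusted p under 0.05 as deposited, and 3 in HU, namely Dut, Dctpp1 and Nudt1, all of which clear unwanted nucleotides. Rrm1, the large subunit of ribonucleotide reductase, had 57.0 and 52.5 FPKM in Gem, 50.3 and 53.7 in HU, and 76.9, 69.7 and 85.0 in DMSO (limma adjusted p = 0.0147 and 0.00492; 0.262 and 0.119 scaled). Dut averaged 47.7 ± 7.21 FPKM in Gem, 38.1 ± 2.12 in HU and 66.8 ± 7.05 in DMSO, with differences of -0.48 (limma adjusted p = 0.0299) and -0.79 (0.00326). The Gem call of Dut was also lost without DMSO library 1 or 3 (0.0860 and 0.0572). Over the 53 tested genes of these 3 lists, 28 (52.8%) were called lower in Gem and 42 (79.2%) in HU, and scaled 3 (5.66%) and 10 (18.9%), against 23.2% and 35.5% of all tested genes as deposited and 1.12% and 9.04% scaled. Between the drugs limma called 0 of the 53, and 1 had an unadjusted p under 0.05. Without Gem library 2, limma called none of the 53 lower in Gem, and the adjusted p was 0.0563 for Dtymk and 0.0582 for Guk1.

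**Figure D5:**
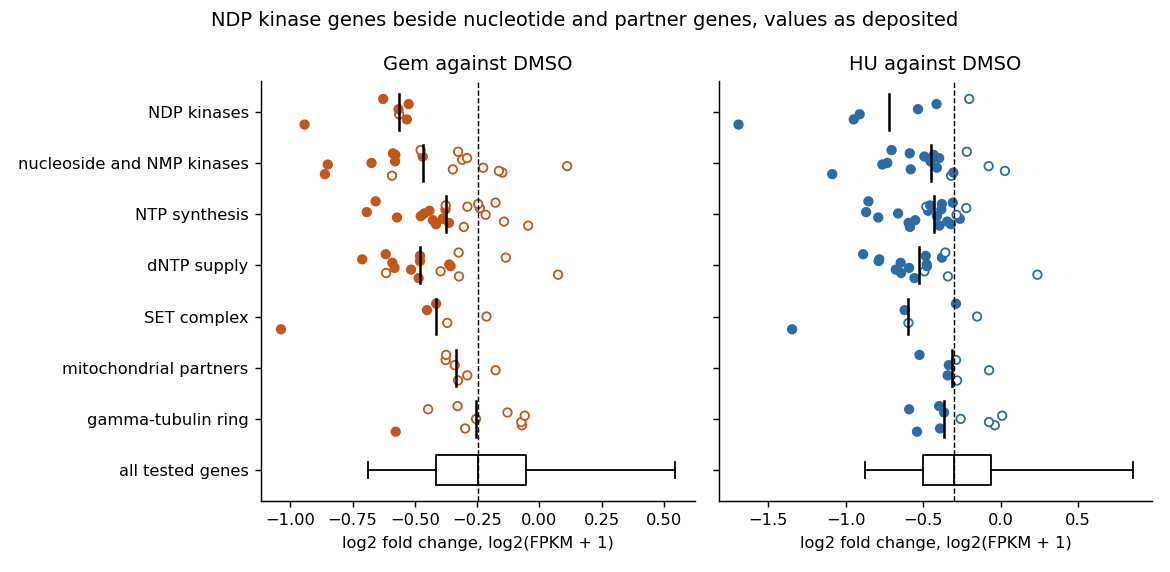
Log2 difference from DMSO on the log2(FPKM + 1) scale (x axes) for the members, 3 nucleotide lists and 3 partner lists (y axes), in Gem and in HU, as deposited. Dots are genes, filled where the limma Benjamini-Hochberg adjusted p was below 0.05, and black bars are list medians. The box and whiskers give the quartiles and the 5th and 95th percentiles of all tested genes, and the dashed line is their median. All list medians lie to the left of that line in both drugs. The margin is small for the gamma-tubulin ring in Gem (-0.2545 against -0.2481) and the mitochondrial partners in HU (-0.312 against -0.301). After scaling (not drawn) these medians were above that of all genes (-0.016 against -0.034, and -0.050 against -0.055).

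Partner proteins were read by the same lists. NME1 is the nuclease that human granzyme A frees from the SET complex, and of 5 tested genes of that complex Set, Hmgb2 and Trex1 fell in both drugs (60% of the list, against 23.2% and 35.5% of all tested genes), with list medians of -0.41 in Gem and -0.60 in HU. Set, the inhibitor that holds NME1 in check, had 114 and 97.0 FPKM in Gem, 88.1 and 81.7 in HU, and 226, 230.1 and 198 in DMSO. All 3 groups were apart, in the order seen for Nme1. Of all tested genes, 42.6% had every drug library below every DMSO library, and 27.7% had both HU libraries below both Gem libraries. Set fell in Gem (-1.04 ± 0.10, limma adjusted p = 0.00557; -0.79 and 0.0166 scaled) and in HU (-1.35 ± 0.10, adjusted p = 0.00103; -1.07 and 0.00249 scaled), and without Gem library 2 the Gem adjusted p was 0.0563. Hmgb2 and Trex1 missed the threshold after scaling in both drugs (limma adjusted p of 0.410 and 0.106 for Hmgb2, and 0.309 and 0.948 for Trex1). Their Gem calls were lost without DMSO library 1 or Gem library 2, that of Hmgb2 also without DMSO library 2 or Gem library 1 (limma adjusted p of 0.0690 to 0.216 for Hmgb2, and 0.0603 and 0.125 for Trex1). Their HU calls were also lost with 1 library left out, Hmgb2 without HU library 2 (0.0525) and Trex1 without HU library 1 or any DMSO library (0.0540 to 0.229). Anp32a had differences of -0.37 and -0.60 and Apex1 of -0.21 and -0.15 (limma adjusted p of 0.298 and 0.0907, and of 0.107 and 0.190). Gzma itself was at most 0.51 FPKM.

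The phosphatases that remove phosphate from histidine were Phpt1, Lhpp and Pgam5, the last of which acts on the catalytic histidine of NME2 in human cells. Phpt1 had 20.9 and 14.6 FPKM in Gem, 15.7 and 17.6 in HU, and 29.9, 29.6 and 29.1 in DMSO. It fell in both (limma adjusted p = 0.0140 and 0.00532) and held in HU after scaling (0.109 in Gem, 0.0394 in HU). The Gem call of Phpt1 was lost without Gem library 2 (difference -0.48). Lhpp and Pgam5 fell in HU (-0.51 and -0.39, limma adjusted p = 0.0184 and 0.0245) and missed the threshold in Gem (-0.34 each, 0.0944 and 0.0579). Lhpp lost the HU call without HU library 2 (0.0990), and Pgam5 without HU library 1 or DMSO library 1 or 2 (0.0627 to 0.151). After scaling both HU calls were lost (-0.25 and -0.12, limma adjusted p = 0.272 and 0.488). Among 7 other partners, 5 fell in each drug, namely Myc, Strap, Itgb1bp1, Kcnn4 and Gnb1 (71.4%, against 23.2% and 35.5% of all tested genes), and the list medians were -0.46 and -0.40. Without Gem library 2 none of the 5 was called in Gem, without DMSO library 1 Myc and Strap were not (limma adjusted p = 0.0734 and 0.0644), without Gem library 1 Strap was not (0.0589), and without HU library 1 Itgb1bp1 and Kcnn4 lost the HU call (limma adjusted p = 0.0630 and 0.0677). Gnb1, a G protein beta subunit that NME2 phosphorylates on histidine, had 155 and 145 FPKM in Gem, 133 and 142 in HU, and 253, 213 and 228 in DMSO, and of the 5 it alone stayed called after scaling, in HU (limma adjusted p = 0.0144). Kcnn4, a potassium channel switched on by NME2 in human T cells, averaged 30.1 ± 0.346 FPKM in Gem, 34.0 ± 1.56 in HU and 45.3 ± 3.55 in DMSO. Myc, whose product binds the E-box, averaged 69.7 ± 8.34, 63.9 ± 5.49 and 95.9 ± 8.91 FPKM in Gem, HU and DMSO (limma adjusted p = 0.0257 and 0.00674; 0.342 and 0.112 scaled). Prune1 and Tiam1 missed the threshold in both drugs, at -0.35 and -0.50 in Gem and at -0.25 and 0.07 in HU.

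For the mitochondrial members, 6 of 7 partner genes were tested. Limma with Benjamini-Hochberg adjustment called 0 of them in Gem, with 5 at an unadjusted p under 0.05, and 3 lower in HU (Dnm1l, Mfn2 and Crls1), with medians of -0.33 and -0.31, beside 23.2% and 35.5% of all genes called lower in Gem and HU. The 3 HU calls were near the threshold, and each was lost without DMSO library 3 or either HU library (limma adjusted p up to 0.243 for Dnm1l, 0.178 for Mfn2 and 0.161 for Crls1). Opa1, the fusion protein served by NME4, had 11.9 and 10.1 FPKM in Gem, 10.2 and 12.6 in HU, and 14.7, 13.4 and 14 in DMSO, and missed the threshold in both (limma adjusted p = 0.0917 and 0.108). Rcc1l, the partner of NME6, had 9.81 and 7.76 FPKM in Gem, 9.58 and 9.1 in HU, and 11.71, 11.78 and 11.41 in DMSO. Rcc1l was below DMSO in all 4 drug libraries, as were 42.6% of all tested genes, but short of the threshold (limma adjusted p = 0.0549 and 0.0896). For NME7, Tubg1 was the 1 gene of 9 tested in the gamma-tubulin ring list that fell in Gem, and 5 fell in HU, whose median was -0.37 against -0.25 in Gem. Of all tested genes, 23.2% and 35.5% were called lower in Gem and HU. Tubg1 averaged 25.7 ± 2.66 FPKM in Gem, 26.4 ± 3.97 in HU and 39.0 ± 6.22 in DMSO. Its Gem call was lost without DMSO library 1 (limma adjusted p = 0.0672). That call was also lost without Gem library 1 or 2 (differences -0.68 and -0.48), and the HU call without HU library 1 (-0.39). The HU calls of Mzt1, Mzt2 and Nedd1 were lost without DMSO library 1 (limma adjusted p = 0.0645, 0.0730 and 0.0673). They were also lost without HU library 2 for Mzt1 (difference -0.29), HU library 1 for Nedd1 (-0.30) and either HU library for Mzt2 (-0.64 and -0.55). After scaling, limma called 0 genes of both lists in either drug; as deposited, 5 ring genes in Gem and 6 in HU had an unadjusted p under 0.05. Of 10 proliferation genes, 4 fell in Gem and 6 in HU (medians -0.36 and -0.42), against 23.2% and 35.5% of all tested genes called lower, and after scaling 0 and 2 were called (medians -0.13 and -0.15); their summed level was 385 to 462 FPKM in Gem, 367 to 413 in HU and 546 to 593 in DMSO. That sum moves with the levels of the members, and its part in them was not tested.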

How the data were processed

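RNA of 7 libraries was amplified by Geo-seq and made into libraries with a TruePrep kit, per the labels' protocols. The values the authors deposited are FPKM per gene (fragments scaled by transcript length and by mapped fragments), 52224 genes in all. Tools listed without roles, per the submitters' processing notes, are Cufflinks 2.1.1, Bowtie 0.12.9, DESeq2 and HTSeq, and the build is mm10. Gene annotation and strand setting: not given in the sources used here. Every per-sample column named a library, and 0 were left unused.

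From the deposited FPKM, log2(FPKM + 1) was fitted with limma 3.58.1 in R 4.3.3 (1 model of 3 groups, mean-variance trend, 4 residual degrees of freedom, 3 contrasts, two-sided), on genes of at least 1 FPKM in at least 2 libraries. Adjusted p-values are Benjamini-Hochberg over all 13865 genes, called below 0.05. A difference on this scale understates the change of low genes. FPKM keeps no depth, so no counting interval is given. Trimmed-mean scaling removed 30% of ratios and 5% of levels at each end and used the deposited values for the filter. Windows of 50 bases and lengths come from GENCODE M21, promoters from RefSeq. Python 3.11.15 made the sequences and figures, and the fit was tested on simulated data.

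The members and lists were chosen with earlier results of these data known. The named genes are the members, their family, all genes of lists of at most 7 genes, up to 4 called genes with the smallest p per drug from longer lists, and the 3 closest profiles per member, leaving out predicted and clone names. Of these, 2 genes are not reported here. Mrps34 and the pseudogenes were added because they share sequence with members. Libraries of equal replicate number had deviations that correlated at -0.0736 to 0.0549, so the numbers showed no clear pairing. With 2 libraries in a drug group, unequal numbers give the same values with opposite sign. The labels do not say whether libraries are paired, and these values cannot settle it. Alternatives were other pseudocounts, filters, scalings and models, a replicate block and leaving out each library.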

Additional observations from a re-analysis of the deposited data

How the results depend on the processing

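Genes called in Gem against DMSO numbered 3421, and 1509 without a filter, 237 by trimmed-mean scaling, 440 at the same sum, 67 after quantile normalization and 2132 without the trend. Members called there were 5, and in the same order 3, 1, 1, 0 and 3, and nucleotide genes 28, and in the same order 13, 3, 3, 0 and 18. In HU against DMSO the 5541 genes became 1886, 1478 and 560 by trimmed means, same sum and quantiles, the 5 members 3, 2 and 1, and the 42 nucleotide genes 10, 8 and 2, of which 1 of the last 2, Adssl1, was called higher (limma adjusted p = 0.0470). In Gem against HU the 14 genes became 1 with a pseudocount of 0.1, 2 without a filter, 2 at a mean FPKM of at least 5, 64 without the trend and 2 with the replicate block. With that block Gem gave 2877 genes and 6 members and HU 4835 and 5. Whether equal numbers pair libraries is not known. The split of calls in Gem was 208 higher and 3213 lower as deposited, 82 and 155 scaled and 106 and 334 at the same sum, and in HU 619 and 4922 as deposited, 632 and 1254 scaled and 645 and 833 at the same sum. After quantile normalization more genes were called higher than lower, 47 and 20 in Gem and 311 and 249 in HU, and without a filter HU gave 3279 higher and 3882 lower.

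Leaving out 1 library gave 13 to 3381 genes, 0 to 6 members and 0 to 29 nucleotide genes in Gem, with the lowest values without Gem library 2. Without DMSO library 1, DMSO library 2 and Gem library 1 the Gem genes numbered 1525, 2167 and 1555. In HU it gave 3095 to 5204 genes, 3 to 5 members and 27 to 38 nucleotide genes, lowest without HU library 1, and between the drugs 1 to 11 genes, 0 members and 0 nucleotide genes. Where 1 drug library was left, it was assumed to vary like the other groups.

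Over the 16 settings the differences of Nme1 ranged from -1.09 to -0.51 in Gem and from -1.77 to -1.17 in HU, and those of Nme2 from -0.61 to -0.09 and from -1.01 to -0.34. Nme1, Nme2, Nme3 and Nme4 were below DMSO in both drugs under all 16 settings, Nme6 and Nme7 under all 16 in Gem, and under 15 and 12 in HU. Settings that change only the filter, the trend or the groups in the model leave a difference as it is. So does leaving out a library of the other drug. The 16 settings are therefore not separate checks of direction.

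Turned signs were sought in members and named genes called as deposited in that drug, leaving out genes named only as closest profiles. Signs turned under quantile normalization in Gem for Adssl1 (0.0093), Mthfd2 (0.044), Hmgb2 (0.0054), Strap (0.050) and Cdk1 (0.039). In HU they turned for Nme6 (0.0066), Dguok (0.025), Adssl1 (0.280), Mthfd2 (0.047), Trex1 (0.22), Pgam5 (0.018), Dnm1l (0.029), Mfn2 (0.034), Mzt1 (0.040), Itgb1bp1 (0.077), Kcnn4 (0.050), Aurkb (0.016) and Kit (0.033). In HU Adssl1 also turned by trimmed means (0.016) and at the same sum (0.076), and Trex1 at the same sum (0.048). Nme7, not called in HU and so not among these, had HU differences of -0.47 to 0.11 over the 16 settings. The cause was not tested. Of the other named genes' values, 885 kept direction and call and 342 kept direction but lost the call.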
